A study of Homo sapiens with 6 samples.

Results

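The 10 endoplasmic reticulum (ER) stress response genes described here are the sensors ERN1 and ATF6, the transcription factor XBP1, the unfolded protein response targets DNAJB9, HERPUD1 and SDF2L1, and the lumenal chaperones HSPA5, HSP90B1, PDIA4 and CALR. They were chosen as a named gene set, by symbol, from the 27420 genes listed in the deposited expression table, and all 10 were found there. The split into targets and chaperones serves description only, since the chaperones are also targets of the response and DNAJB9 and SDF2L1 work with HSPA5. RNA-seq libraries came from A673 and SKNMC cells, both established Ewing sarcoma lines that carry the EWS-FLI1 fusion. Cells of each line were exposed for 6 h to DMSO alone, the vehicle, or to THZ1 at 50 nM or 200 nM. THZ1 is a covalent inhibitor of CDK7, the kinase that phosphorylates RNA polymerase II during transcription initiation. Each of the 6 conditions had 1 library, so within a line no difference could be set against a spread between replicates. The values of each line are therefore given without a test, and a fit over all 6 libraries, with the 2 lines as blocks, tests the part of the response that the lines share. Values are FPKM, fragment counts divided by transcript length and by library size, and can be set side by side between genes.

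The ER folds secreted and membrane proteins with the help of HSP70 and HSP90 family chaperones, lectin chaperones and disulfide isomerases. When unfolded proteins build up, the membrane sensors IRE1 (encoded by ERN1), ATF6 and PERK (encoded by EIF2AK3) start the unfolded protein response. Activated IRE1 removes a short intron from XBP1 mRNA, ATF6 is cut in the Golgi to free its cytoplasmic transcription factor domain, and both factors act on promoters of chaperone and ER-associated degradation genes. PERK slows translation and favours translation of ATF4. Gene-level FPKM does not separate spliced from unspliced XBP1 mRNA, so these values report transcript abundance and not the activity of any sensor.

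In all 6 libraries, 6 of 6 Ewing sarcoma markers (CD99, NKX2-2, NR0B1, STEAP1, FLI1 and CCND1) were above 1 FPKM, with a summed level from 643 to 1494 FPKM. Among 4 listed markers of other cell types, CD3E, EPCAM and CDH1 were below 1 FPKM in every library. The leukocyte marker PTPRC was at 7.90 to 13.1 FPKM in the SKNMC libraries and at 0.0291 FPKM or less in the A673 libraries, and its part in the values below was not tested. The summed level of the 4 markers ranged from 0.043 to 14 FPKM. The sums of all listed FPKM with THZ1 lay between 97.8% and 100.5% of the DMSO library of the same line. Since FPKM is divided by library size, these sums are held close by construction and say nothing about total mRNA per cell. The number of reads per library is unknown from FPKM, so no counting interval can be given for a single gene.

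The ER stress element (ERSE) is the promoter sequence through which NF-Y, ATF6 and XBP1 act on chaperone genes. In the RefSeq promoter windows (assembly GRCh38.p14, from 250 bases before to 50 bases after each start site), ERSE was searched on both strands as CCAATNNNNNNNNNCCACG, ERSE-II as ATTGGNCCACG and the XBP1-binding unfolded protein response element (UPRE) as TGACGTGG. All 10 genes matched a window, and 6 of 10 held ERSE or ERSE-II. The exact ERSE letters occurred in 27 of all 35116 windows (0.0769%) and ERSE-II in 19 (0.0541%). UPRE occurred in 256 windows (0.729%) and in none of those of the 10 genes. The stretches around the matches are printed because they set XBP1, the member with the lowest log2 fold changes with THZ1, beside chaperone genes that hold the same element. Capitals mark the 5 fixed bases at either end of a match, which are CCAAT and CCACG for ERSE and ATTGG and CCACG for ERSE-II. Where the element lies on the other strand, its reverse complement is printed, as in the second HSP90B1 copy, CALR and SDF2L1, and no matches overlapped each other.
HSPA5, chr9:125241383-125241417, minus strand: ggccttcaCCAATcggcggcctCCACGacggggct
XBP1, chr22:28800595-28800629, minus strand: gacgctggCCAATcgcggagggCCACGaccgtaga
HSP90B1, chr12:103930208-103930347, plus strand: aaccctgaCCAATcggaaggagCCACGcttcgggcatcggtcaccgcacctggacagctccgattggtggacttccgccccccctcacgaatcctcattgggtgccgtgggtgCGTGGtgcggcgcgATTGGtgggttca
CALR, chr19:12938376-12938410, plus strand: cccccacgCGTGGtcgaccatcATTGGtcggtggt
HERPUD1, chr16:56932017-56932043, plus strand: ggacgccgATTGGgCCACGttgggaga
SDF2L1, chr22:21642106-21642132, plus strand: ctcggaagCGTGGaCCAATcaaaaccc

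ERSE lay at -66 to -48 from the RefSeq start site in HSPA5 and at -52 to -34 in XBP1, in the same orientation. HSP90B1 held 2 copies, at -194 to -176 and, on the other strand, at -89 to -71. CALR held 1 copy on the other strand, at -225 to -207. ERSE-II lay at -117 to -107 in HERPUD1 and, on the other strand, at -188 to -178 in SDF2L1. XBP1 has a second RefSeq window without a match. No match was found for ATF6, ERN1, DNAJB9 or PDIA4, which says only that these exact letters are not in these windows.

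**Figure D1:**
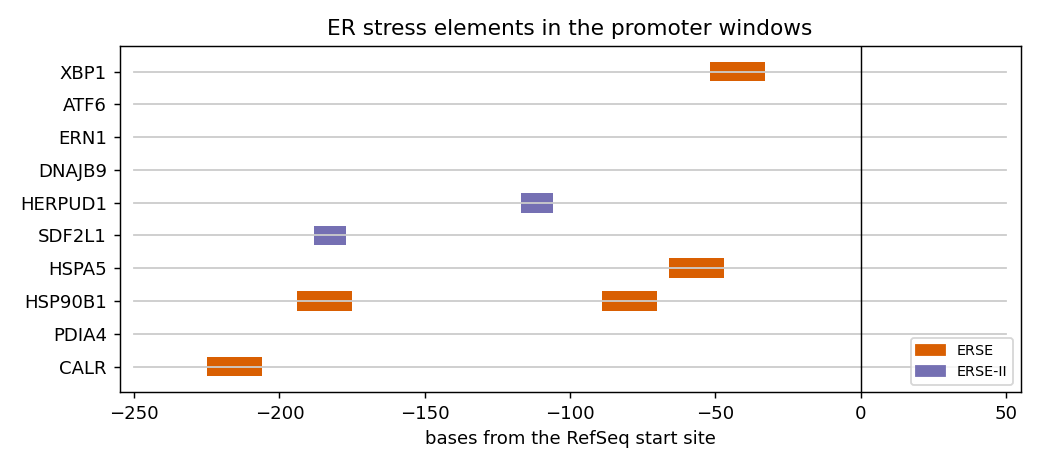
Positions of ERSE (orange, 19 bases) and ERSE-II (purple, 11 bases) in the RefSeq promoter window of each gene, in bases from the start site (vertical line). The XBP1 and HSPA5 elements lie closest to the start site, at -52 to -34 and at -66 to -48, and 4 of 10 genes hold no match.

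In cells with DMSO the 10 genes fell into an abundant chaperone group and a group of regulators and targets at far lower levels. HSP90B1 was listed at 404.6 FPKM in A673 and 279.0 FPKM in SKNMC, above 98.6% and 98.3% of active genes, which are those above 1 FPKM with DMSO in that line. CALR followed at 377.6 and 271.5 FPKM. HSPA5 was at 150.1 and 91.3 FPKM and PDIA4 at 100.8 and 88.2 FPKM. The other 6 genes lay between 1.53 FPKM (ERN1) and 30.3 FPKM (XBP1) in A673, and between 1.59 FPKM (ERN1) and 35.8 FPKM (XBP1) in SKNMC. XBP1 was the highest of these 6 in both lines, and ERN1 the lowest. HSPA5 was the member that differed most between the DMSO libraries, 1.64 times higher in A673. Summed over the 10 genes, the level was 0.246% of the listed FPKM in A673 and 0.180% in SKNMC. The order of neighbouring genes could not be set against any spread.

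With THZ1, 3 of the 6 regulators and targets were lower throughout. XBP1, DNAJB9 and HERPUD1 were lower at least 1.5-fold in all 4 THZ1 libraries, and in no THZ1 library was any of the 10 genes higher at least 1.5-fold. These folds are on the log2((FPKM + 1) / (FPKM + 1 with DMSO)) scale, where the added 1 makes changes of weakly expressed genes look smaller. In A673 at 50 nM, 3 of 10 genes were lower at least 1.5-fold (31.8% of 11077 active genes) and 0 were higher (1.78%). In A673 at 200 nM, 4 of 10 were lower (41.1%) and 0 were higher (1.7%). In SKNMC, 5 of 10 were lower at 50 nM (33.5% of 11896 active genes) and 0 were higher (2.43%). At 200 nM in SKNMC, 5 of 10 were again lower (48%) and 0 were higher (2.81%). The counts lay near these shares of all active genes in 3 of the 4 libraries and above them in SKNMC at 50 nM, a difference that was not tested. How many of all active genes were lower in all 4 libraries was not counted, so XBP1, DNAJB9 and HERPUD1 have no share beside them.

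At the stricter 2-fold size, 3 genes were lower in the A673 library with 50 nM (15.9% of active genes) and 3 in that with 200 nM (25.3%). In SKNMC the counts were 2 for 50 nM (15.8%) and 5 for 200 nM (27.3%). The median log2 fold change of the 10 genes was -0.14 in A673 at 50 nM and -0.26 at 200 nM, against -0.27 and -0.40 over all active genes. In SKNMC it was -0.48 at 50 nM and -0.69 at 200 nM, against -0.32 and -0.55. The 10 values spread from -3.19 to 0.53 in A673 and from -3.45 to 0.29 in SKNMC at 200 nM, so the median describes no single member well. Both doses of a line were compared with the same DMSO library, and an error in that library would enter both. FPKM is a share of a library, and a lower value with fewer transcripts per cell cannot be told apart from one with fewer cells that express the gene. A higher value likewise does not show more transcripts per cell.

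The share of lower genes depended on the scaling. Divided by the 75th percentile of active genes, 23.5%, 30.4%, 23.2% and 27.4% of active genes were lower at least 1.5-fold, and 6.17%, 14.1%, 8.25% and 15.2% were higher, in the order A673 at 50 nM and 200 nM and SKNMC at 50 nM and 200 nM. With the ribosomal protein median as divisor, 42.0%, 54.9%, 56.0% and 76.8% were lower and 0.731%, 0.271%, 0.563% and 0.319% were higher. XBP1, DNAJB9 and HERPUD1 stayed lower at least 1.5-fold in all 4 libraries under both scalings. The share of all active genes that did so was not counted.

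**Figure D2:**
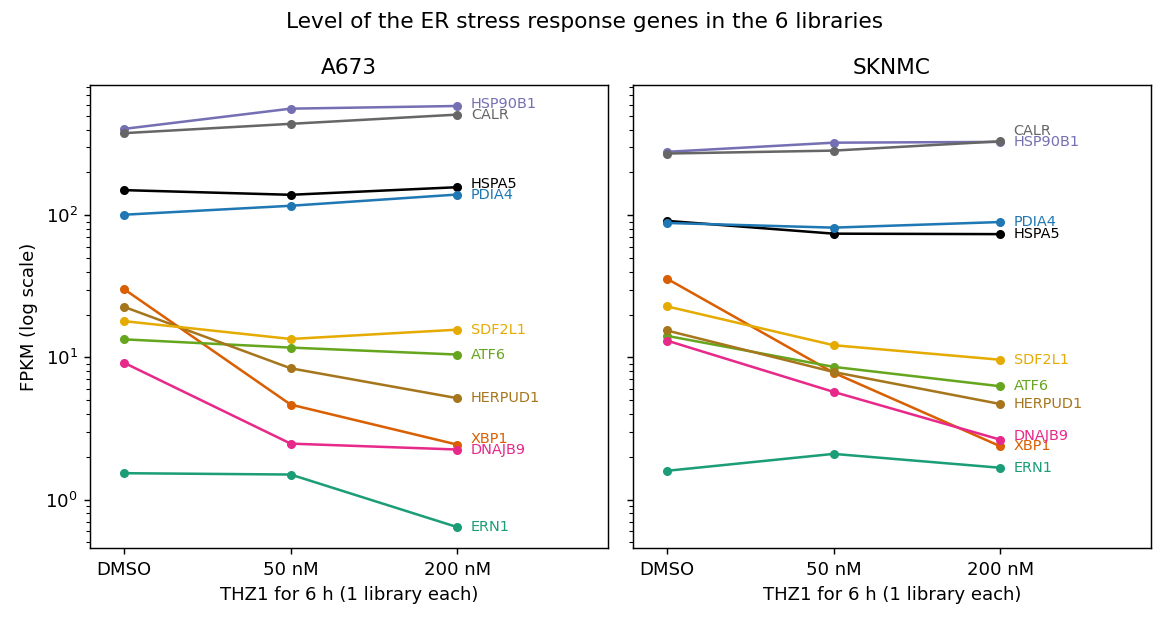
FPKM (log axis) of the 10 genes in the 6 libraries, A673 on the left and SKNMC on the right, 1 library per point. The 4 chaperones stay between 73.6 and 586.4 FPKM in every library, while XBP1 runs from 30.3 to 2.43 FPKM in A673 and from 35.8 to 2.37 FPKM in SKNMC.

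XBP1 (ENSG00000100219, chromosome 22, 29190543 to 29196585 on hg19, minus strand) encodes the transcription factor made by IRE1-dependent splicing. The A673 libraries had 30.3 FPKM with DMSO, 4.66 FPKM with 50 nM and 2.43 FPKM with 200 nM. The SKNMC libraries had 35.8, 7.80 and 2.37 FPKM. In both lines the value was lower at 50 nM than with DMSO and lower again at 200 nM. In A673 the FPKM was 6.5-fold lower at 50 nM and 12.4-fold lower at 200 nM, with log2 fold changes of -2.47 and -3.19. The SKNMC values were 4.59-fold and 15.1-fold lower, with log2 fold changes of -2.07 and -3.45. With active genes put in order from the most lowered, XBP1 stood at place 34 of 11077 at 50 nM and at place 17 at 200 nM in A673. In SKNMC it stood at place 115 of 11896 and at place 4. Compared directly, the 200 nM library was below the 50 nM library by a log2 fold change of -0.72 in A673 and -1.39 in SKNMC.

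ATF6 (ENSG00000118217, chromosome 1, 161736084 to 161933860, plus strand), the Golgi-processed sensor, was at 13.4, 11.7 and 10.5 FPKM in A673 with DMSO, 50 nM and 200 nM THZ1. The SKNMC values were 14.2, 8.58 and 6.26 FPKM. The levels with DMSO were close in the 2 lines, and the values with THZ1 were lower in SKNMC. The log2 fold changes were -0.18 and -0.33 in A673 and -0.66 and -1.06 in SKNMC, but with scaling to the 75th percentile the first became 0.05 and the SKNMC value at 50 nM -0.42, under 1.5-fold. In A673 56.6% and 53.1% of active genes had a lower log2 fold change than ATF6, and in SKNMC 29.1% and 24.6%.

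ERN1 (ENSG00000178607, chromosome 17, 62116502 to 62208179, minus strand), which encodes IRE1, was the least abundant of the 10 genes in every library. It was at 1.53, 1.5 and 0.639 FPKM in A673 and at 1.59, 2.10 and 1.67 FPKM in SKNMC. The A673 value at 200 nM was the only one below 1 FPKM, and the SKNMC values with THZ1 lay above the DMSO value. On the log2 scale ERN1 differed from DMSO by -0.02 and -0.63 in A673 and by 0.26 and 0.04 in SKNMC, where ribosomal protein scaling gave -0.01 and -0.30. At levels this near to 1 FPKM the added 1 shrinks the fold: the plain FPKM ratio at 200 nM in A673 was 2.40-fold lower. The A673 value at 200 nM became -0.48, under 1.5-fold, with scaling to the 75th percentile. Summed over ERN1, ATF6 and XBP1, the level at 200 nM was 30.0% of the DMSO level in A673 and 20.0% in SKNMC, and XBP1 made up most of the sum with DMSO.

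DNAJB9 (ENSG00000128590, chromosome 7, 108210012 to 108215294, plus strand) encodes ERdj4, an HSPA5 cofactor and a known XBP1 target that also restrains IRE1. It was at 9.18, 2.47 and 2.25 FPKM in A673 and at 13.1, 5.72 and 2.64 FPKM in SKNMC. In A673 nearly the whole decrease was present at 50 nM, while in SKNMC the 200 nM value lay well below the 50 nM value. For DNAJB9 the log2 fold changes were -1.55 and -1.65 in A673 and -1.07 and -1.96 in SKNMC. From 50 to 200 nM the log2 difference was -0.10 in A673 and -0.89 in SKNMC. The gene overlaps THAP5 and PNPLA8 on the other strand, and the sources used here do not state whether strand was used in counting. THAP5 was at 18.0, 4.90 and 5.71 FPKM in A673 and at 19.8, 4.62 and 5.31 FPKM in SKNMC. PNPLA8 was at 8.84, 6.88 and 4.64 FPKM and at 15, 12 and 5.13 FPKM. The DNAJB9 values are therefore uncertain, and the part of the neighbours in them was not tested.

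HERPUD1 (ENSG00000051108, chromosome 16, 56965960 to 56977798, plus strand), a membrane component of the ER-associated degradation machinery, was at 22.7, 8.38 and 5.16 FPKM in A673. Its SKNMC values were 15.5, 7.89 and 4.70 FPKM. The values were lower at each higher dose in both lines. HERPUD1 thus had log2 fold changes of -1.34 and -1.94 in A673 and -0.89 and -1.53 in SKNMC. The direct log2 difference between the doses was -0.61 in A673 and -0.64 in SKNMC.

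SDF2L1 (ENSG00000128228, chromosome 22, 21996550 to 21998587, plus strand), a lumenal partner of HSPA5 and its cofactors, was at 18.0, 13.5 and 15.7 FPKM in A673 and at 22.9, 12.2 and 9.62 FPKM in SKNMC. The 200 nM value lay above the 50 nM value in A673 and below it in SKNMC. For SDF2L1 the log2 fold changes were -0.39 and -0.19 in A673 and -0.86 and -1.17 in SKNMC, and the A673 value at 200 nM turned to 0.14 with scaling to the 75th percentile. Summed over DNAJB9, HERPUD1 and SDF2L1, the level was 48.8% and 46.3% of the DMSO level in A673 and 50.1% and 32.9% in SKNMC.

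The 4 chaperones did not share this course. HSPA5 (ENSG00000044574, chromosome 9, 127997132 to 128003609, minus strand) encodes BiP, the ER HSP70 that binds unfolded proteins and holds the sensors inactive. It was at 150.1, 139.2 and 157.4 FPKM in A673 and at 91.3, 74.2 and 73.6 FPKM in SKNMC. The A673 values lay on both sides of the DMSO value, and both SKNMC values lay below it. The log2 fold changes were -0.11 and 0.07 in A673 and -0.30 and -0.31 in SKNMC. Under other scalings they ranged from -0.34 to 0.13 and from -0.28 to 0.41 in A673, and from -0.70 to -0.02 and from -0.90 to 0.22 in SKNMC, so in 3 of the 4 comparisons the direction depended on the scaling.

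HSP90B1 (ENSG00000166598, chromosome 12, 104323885 to 104347423, plus strand), which encodes GRP94, the ER HSP90, was at 404.6, 561.6 and 586.4 FPKM in A673. The values of the SKNMC libraries were 279.0, 323.7 and 327.8 FPKM. All 4 values with THZ1 were above the DMSO value of the line as deposited. The log2 fold changes were 0.47 and 0.53 in A673 and 0.21 and 0.23 in SKNMC, but the SKNMC values turned to -0.19 and -0.37 with scaling to the ribosomal protein genes. Among active genes, 96.8% and 97.4% had a lower log2 fold change in A673 and 86.6% and 89.7% in SKNMC. HSP90B1 overlaps C12orf73 on the other strand, which was at 11.4 FPKM with DMSO in A673 and at 15.5 FPKM in SKNMC and lower with THZ1.

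CALR (ENSG00000179218, chromosome 19, 13049392 to 13055303, plus strand) encodes calreticulin, a calcium-binding lectin chaperone. It was at 377.6, 439.2 and 510.1 FPKM in A673 and at 271.5, 284.7 and 331.1 FPKM in SKNMC. The value was higher at each higher dose in both lines as deposited. CALR had log2 fold changes of 0.22 and 0.43 in A673 and 0.07 and 0.29 in SKNMC, and with ribosomal protein scaling they became -0.01, 0.08, -0.34 and -0.32.

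PDIA4 (ENSG00000155660, chromosome 7, 148700154 to 148725733, minus strand) encodes ERp72, a protein disulfide isomerase. It was at 100.8, 116.5 and 139.8 FPKM in A673 and at 88.2, 81.8 and 89.5 FPKM in SKNMC. The A673 values were higher at each higher dose, and the SKNMC values stayed within 10 FPKM of each other. The log2 fold changes were 0.21 and 0.47 in A673 and -0.11 and 0.02 in SKNMC, where ribosomal protein scaling gave -0.51 and -0.57 and the 75th percentile 0.16 and 0.55. Summed over the 4 chaperones as deposited, the level was 121.6% and 134.9% of DMSO in A673 and 104.7% and 112.6% in SKNMC. HSP90B1 and CALR made up most of these sums. In SKNMC at 200 nM each of the 4 was below DMSO with ribosomal protein scaling and above it with the 75th percentile.

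**Figure D3:**
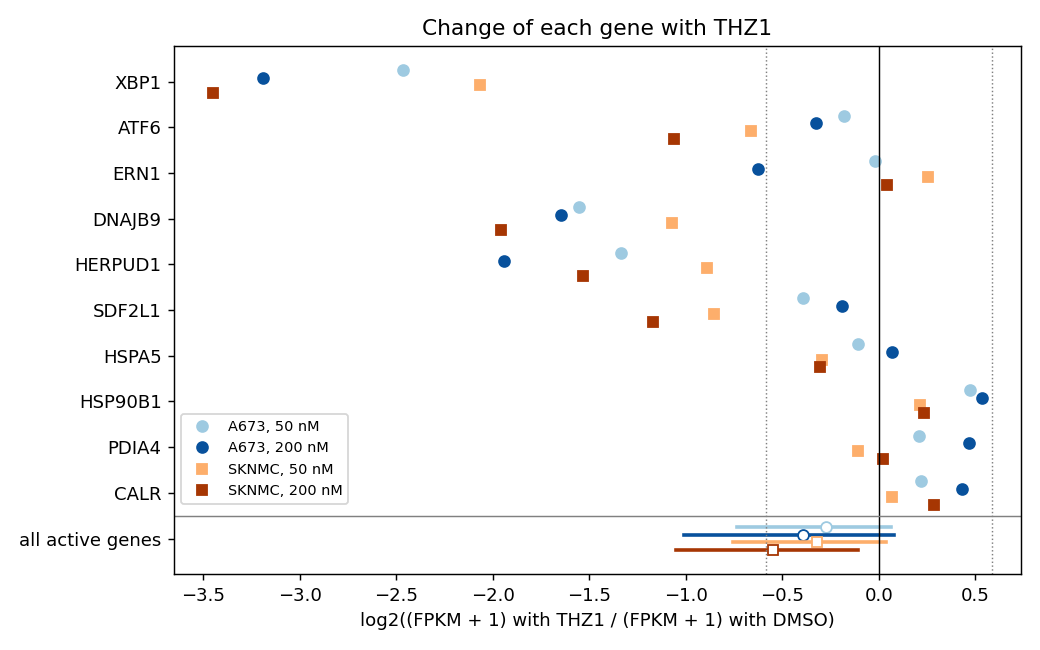
Change of each gene against the DMSO library of its line, as log2((FPKM + 1) / (FPKM + 1)), for A673 (circles) and SKNMC (squares) at 50 nM (pale) and 200 nM (dark). The dotted lines mark 1.5-fold, the lowest row gives the median (open symbols) and the quartiles (bars) of all active genes, and XBP1, DNAJB9 and HERPUD1 lie left of the lower line in all 4 libraries.

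The shared response of the 2 lines was tested with limma, in a fit of line plus dose to log2(FPKM + 1) over the 10574 genes active in both lines, which leaves 2 residual degrees of freedom per gene. At 50 nM, 4 of 10 genes were lower at an adjusted p under 0.05 (38.5% of genes tested) and 1 was higher (5.12%). At 200 nM, 5 of 10 were lower (52.7%) and 2 were higher (6.08%). The counts of lower members lay near the shares of all genes tested. XBP1 fell by 2.27 at 50 nM (SE 0.19, limma adjusted p 1.2e-05) and by 3.32 at 200 nM (SE 0.19, adjusted p 1.0e-06) on the log2 scale, with both lines lower at each dose. DNAJB9 had mean log2 fold changes of -1.31 and -1.80 (SE 0.21, limma adjusted p 0.00041 and 2.2e-05) and HERPUD1 of -1.11 and -1.74 (SE 0.18, adjusted p 0.00049 and 1.1e-05), also lower in both lines. These 3 genes kept their call in each of the 6 fits that left out 1 library and under both other scalings. The share of all genes tested that did so was not counted, so this does not set the 3 genes apart.

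For the other members the same fit gave calls that depended on the libraries or the scaling. SDF2L1 had mean log2 fold changes of -0.62 and -0.68 (limma adjusted p 0.033 and 0.016), and neither call held with scaling to the 75th percentile (adjusted p 0.15 and 0.27). The call at 50 nM was lost without the A673 or SKNMC library with 50 nM or the SKNMC library with DMSO, and that at 200 nM without the SKNMC library with DMSO or with 200 nM. ATF6 was called at 200 nM, at -0.70 (limma adjusted p 0.0097), and not at 50 nM (-0.42, adjusted p 0.10). This call was lost with scaling to the 75th percentile (adjusted p 0.19) and without the SKNMC library with DMSO or with 200 nM. With ribosomal protein scaling ATF6 was called lower at both doses (limma adjusted p 0.0038 and 6.5e-06).

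Of the chaperones, HSP90B1 was higher at both doses, by 0.34 and 0.38 (limma adjusted p 0.020 and 0.0076), and CALR at 200 nM, by 0.36 (adjusted p 0.0074), in both lines. With ribosomal protein scaling neither was called (adjusted p 0.90 and 0.55 for HSP90B1 and 0.46 for CALR). The HSP90B1 call at 50 nM was also lost without the A673 library with DMSO or either library with 50 nM, and that at 200 nM without the A673 library with DMSO. HSPA5 (limma adjusted p 0.22 and 0.44), PDIA4 (0.79 and 0.14) and ERN1 (0.65 and 0.21) passed at neither dose as deposited, which does not show that they were unchanged. Under the scalings HSPA5 was called in opposite directions at 200 nM, higher with the 75th percentile (limma adjusted p 0.021) and lower with the ribosomal protein genes (0.0073). With the ribosomal protein genes HSPA5 was also called lower at 50 nM (limma adjusted p 0.024) and ERN1 lower at 200 nM (0.010). With the 75th percentile PDIA4 was called higher at both doses (limma adjusted p 0.046 and 0.00083). CALR was then also called higher at 50 nM (limma adjusted p 0.0071). The variance of each gene was drawn towards a trend over all genes tested, so a p-value rests only in part on its 2 residual degrees of freedom. It measures how alike the 2 lines behaved, over the other genes as well as for the gene itself. It does not measure the spread between cultures, and both doses share the DMSO libraries. For XBP1 at 200 nM the limma adjusted p was 5.4e-23 with ribosomal protein scaling and 1.0e-06 as deposited. The sizes of p-values from different scalings should therefore not be compared.

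A ratio of 2 genes within a library does not depend on the scaling. The ratio of XBP1 to HSPA5 was 0.202 in the A673 library with DMSO, 0.0334 with 50 nM and 0.0155 with 200 nM. For SKNMC it was 0.393, 0.105 and 0.0322. At 200 nM this ratio was 13.0-fold lower than with DMSO in A673 and 12.2-fold lower in SKNMC. The ratio of HERPUD1 to HSPA5 was 4.61-fold lower in A673 and 2.65-fold lower in SKNMC, and that of DNAJB9 to HSPA5 4.28-fold and 4.02-fold lower. The ratio of HSP90B1 to HSPA5 went from 2.70 to 3.73 in A673 and from 3.06 to 4.45 in SKNMC. These ratios show unequal change within the group and not which gene changed.

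The 2 lines gave a similar order of the 10 genes. Spearman's rho between the log2 fold changes of A673 and SKNMC was 0.93 at 50 nM and 0.81 at 200 nM over the 10 genes, against 0.84 and 0.82 over the 10574 genes active in both lines. These are descriptions across genes, which share their libraries and are not replicates. The A673 value was the higher of the 2 for 6 of 10 genes at 50 nM (53.4% of genes active in both lines) and for 8 of 10 at 200 nM (61.9%). The 2 genes at 200 nM with a lower value in A673 were ERN1 and HERPUD1. The largest gap at 200 nM was that of SDF2L1, by 0.98 on the log2 scale, followed by ATF6 at 0.74.

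Genes with ERSE differed widely in their change. Among the 4 genes with ERSE, the log2 fold change at 200 nM ran from -3.19 (XBP1) to 0.53 (HSP90B1) in A673 and from -3.45 (XBP1) to 0.29 (CALR) in SKNMC. Of the 2 genes with ERSE-II, HERPUD1 was at -1.94 and SDF2L1 at -0.19 in A673, while in SKNMC they were closer, at -1.53 and -1.17. Over all active genes with an ERSE match, 14 in A673 and 13 in SKNMC with the 4 members included, the median was -0.17 and -0.24 at 200 nM, against -0.40 and -0.58 over active genes with a promoter window. Without the members it was -0.44 over 10 genes and -0.24 over 9 genes. The part of these elements in the changes was not tested.

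Members of like size also differed in their change. XBP1, HSPA5, CALR and DNAJB9 span 6.04, 6.48, 5.91 and 5.28 kb. Their log2 fold changes at 200 nM were -3.19, 0.07, 0.43 and -1.65 in A673 and -3.45, -0.31, 0.29 and -1.96 in SKNMC. The longest members, ATF6 at 198 kb and ERN1 at 91.7 kb, lay within the range of these values. They were at -0.33 and -0.63 in A673 and at -1.06 and 0.04 in SKNMC. The part of gene size in the changes was not tested. Of the 10 genes, 8 were shorter than the 32.6 kb median of 10220 genes active in both lines with a GENCODE transcript. The transcript lengths of the members ran from 825 bases (SDF2L1) to 9028 bases (ERN1), and the GC content from 37.3% (DNAJB9) to 65.1% (SDF2L1).

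A wider list of 140 ER stress and ER protein folding genes in 7 groups, all of them listed, placed the members among their pathway. Without the PERK branch group, 123 of 125 genes were active in each line. EIF2AK3, the gene of PERK, stayed among them because it also stands in the group of sensors. The median log2 fold change of these 123 was -0.01 in A673 at 50 nM and 0.06 at 200 nM, and -0.12 and -0.24 in SKNMC. Lower at least 1.5-fold were 13.8% and 17.1% of them in A673 (31.8% and 41.1% of all active genes) and 17.9% and 28.5% in SKNMC (33.5% and 48%). Higher were 0 and 1 genes in A673 (1.78% and 1.7% of all active genes) and 3 and 0 in SKNMC (2.43% and 2.81%). The list thus sat above the median of all active genes in all 4 libraries, also in the 113 genes without members, whose medians were 0.01, 0.07, -0.12 and -0.23.

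The chaperone and folding groups had the highest medians at 200 nM. These were 0.16 and -0.17 (A673 and SKNMC) for HSP70 and HSP90 family chaperones, 0.30 and -0.15 for disulfide isomerases and 0.32 and 0.17 for lectin chaperones. The counts of these groups at 200 nM stand beside 41.1% of all active genes lower at least 1.5-fold in A673 and 48% in SKNMC. Of 21 HSP70 and HSP90 family chaperones and cofactors, 1 was lower at least 1.5-fold at 200 nM in A673 and 4 in SKNMC, and DNAJB9 alone was lower in both. Of the disulfide isomerases and oxidases, 1 of 19 in A673 and 2 of 20 in SKNMC were lower at 200 nM. TXNDC11, a thioredoxin domain protein of the ER membrane, was at 8.92, 4.32 and 2.12 FPKM in A673 and at 8.21, 6.63 and 2.22 FPKM in SKNMC. Of 11 lectin chaperone and glycoprotein folding genes, 1 was lower at 200 nM in A673 and 2 in SKNMC. MOGS, the glucosidase that trims the first glucose of the N-glycan, was at 20.2, 7.50 and 7.70 FPKM in A673 and at 19.4, 8.98 and 8.90 FPKM in SKNMC. Of 30 translocation and export genes, 3 were lower in A673 and 5 in SKNMC at 200 nM. SRP68, a subunit of the signal recognition particle, was at 32.4, 20.0 and 12.6 FPKM in A673 and at 33.5, 19.9 and 9.63 FPKM in SKNMC. Another subunit, SRP19, was at 65.6, 39.1 and 33.2 FPKM and at 63.7, 36.5 and 18.1 FPKM.

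Among ER-associated degradation genes the share of lower genes was no higher than over all active genes. Of 25 degradation genes, 8 were lower at least 1.5-fold in A673 and 12 in SKNMC at 200 nM, 32.0% and 48.0%, against 41.1% and 48% of all active genes. RNF139, a ubiquitin ligase of the ER membrane, was at 22.1, 26.7 and 5.04 FPKM in A673 and at 16.8, 24.0 and 5.05 FPKM in SKNMC. Its value at 50 nM lay above DMSO in both lines and its value at 200 nM below, unlike HERPUD1, which was already lower at 50 nM. Among sensors and transcription factors, 7 of 18 were lower in A673 and 10 of 17 in SKNMC at 200 nM. NFYA, a subunit of the CCAAT-binding factor NF-Y, was at 19.3, 10.3 and 3.56 FPKM in A673 and at 19.4, 18.5 and 7.07 FPKM in SKNMC. EIF2AK3, the gene of the third sensor PERK, which was named after its values were seen, was at 3.43, 2.97 and 0.391 FPKM in A673 and at 3.79, 4.37 and 0.80 FPKM in SKNMC. Of the genes of the 3 sensors, EIF2AK3 thus had the lowest log2 fold change at 200 nM, -1.67 and -1.41, but little difference from DMSO at 50 nM.

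The PERK branch and its ATF4 targets formed the lowest group. Of 15 active genes, 8 passed 1.5-fold downwards with 50 nM and 10 with 200 nM in each line, 53.3% and 66.7%. Over all active genes the shares were 31.8% and 41.1% in A673 and 33.5% and 48% in SKNMC. The group had medians of -0.86 and -1.03 in A673 and -0.74 and -1.30 in SKNMC. Its genes did not move alike, with values at 200 nM from -2.90 to 0.44 in A673 and from -2.90 to -0.05 in SKNMC. DDIT3, which encodes the factor CHOP, was at 13.7, 0.915 and 0.969 FPKM in A673 and at 10.7, 1.07 and 1.16 FPKM in SKNMC, and TRIB3, a pseudokinase, at 17.7, 5.10 and 2.88 FPKM and at 12, 3.19 and 0.736 FPKM.

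**Figure D4:**
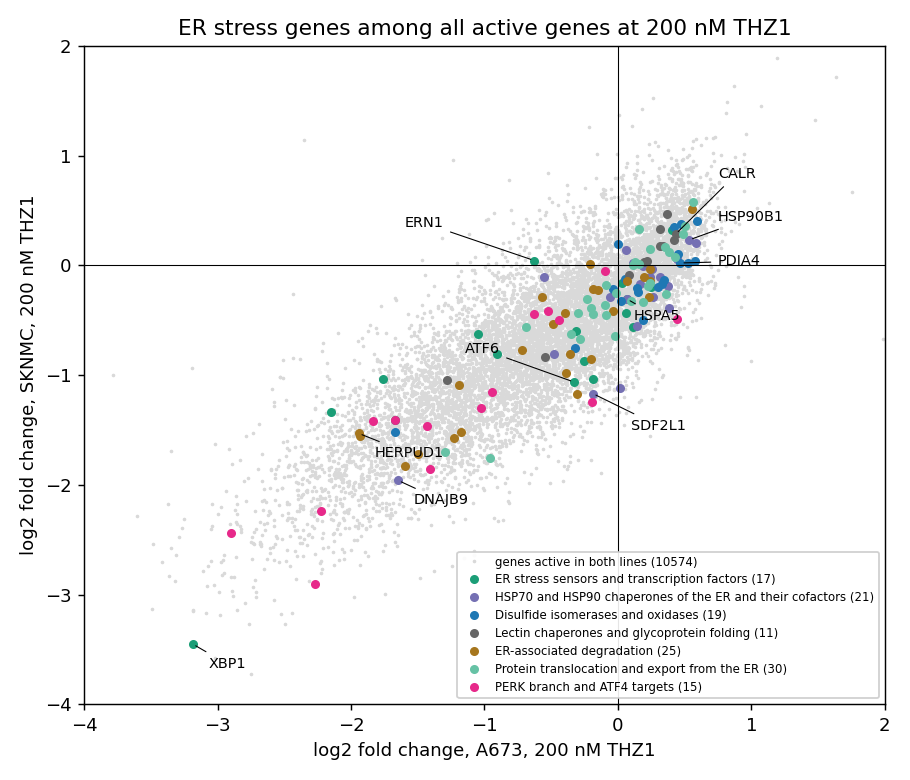
Log2 fold change at 200 nM THZ1 in A673 (horizontal) and SKNMC (vertical) for the 10574 genes active in both lines (grey, 7 of them outside the axes) and for the genes of the wider list, coloured by group, with the 10 members labelled. XBP1 lies at -3.19 and -3.45, far below the chaperones HSPA5, HSP90B1, PDIA4 and CALR, which lie within 0.6 of 0 in both lines.

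The genes most like HSPA5 and XBP1 were found by the Euclidean distance over the 4 log2 fold changes, among 10573 other genes active in both lines. The nearest to HSPA5 were GNG11 (distance 0.050), QSOX2 (0.065) and USB1 (0.065). Within the wider list they were QSOX2, a thiol oxidase, SPCS1, a signal peptidase subunit (0.12), and AUP1, a degradation factor of the ER membrane (0.16). The nearest to XBP1 were INTS5 (0.39), TNFRSF1A (0.56) and TGIF2 (0.58). INTS5, an Integrator complex subunit, was at 13.1, 1.73 and 0.779 FPKM in A673 and at 17.1, 2.86 and 0.995 FPKM in SKNMC. Within the wider list the nearest to XBP1 were DDIT3 (1.23), TRIB3 (1.43) and CEBPB (1.97). The list is a part of the same genes and cannot hold a nearer one than all of them, so the larger distances say nothing further.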

How the data were processed

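Per the labels and the study's methods, RNA from A673 and SKNMC cells was sequenced as paired-end TruSeq libraries and aligned to hg19 (GRCh37) with STAR. The authors deposited FPKM per Ensembl gene, estimated with StringTie according to the methods, while the submitters' processing notes name Cufflinks. The table's title speaks of average expression, but the labels give 1 library per condition, so each column was taken as 1 library. The authors' own log2 fold changes in the same table were not used. Only protein-coding and lincRNA genes are listed. Table starts count from 0 and were shifted by 1.

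Log2 fold changes used a pseudocount of 1 FPKM. A gene counted as active in a line where its DMSO value exceeded 1 FPKM. Sizes of 1.5-fold and 2-fold were used for counts. Named genes were the 10 members, from each group of the wider list at most 2 genes per direction with the largest mean change among those changed at least 1.5-fold the same way in both lines at 200 nM, and the 3 nearest genes to HSPA5 and XBP1. Members and lists were chosen with earlier results of these data known. Of the 140 list genes 5 were matched through another symbol, and HSPA5 and EIF2AK3 stand in 2 groups each. Alternatives were pseudocounts of 0.1 and 0, 3 other scalings, other filters and a 2-fold threshold. A limma fit of line plus dose (log2(FPKM + 1), trend in the prior variance, Benjamini-Hochberg adjustment over 10574 genes) and its repeats without each library and with 2 other scalings were added after seeing the data. The steps were tested on simulated data, with large changes in a small share of genes and little noise. In the real data far more genes were lower, so this checked the code and not whether the fit suits these data. Python 3.11.15, pandas 2.3.3, numpy 2.4.6 matplotlib 3.10.9 and limma 3.58.1 were used.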

Additional observations from a re-analysis of the deposited data

Results flagged for a closer look

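ERN1 had log2 fold changes of opposite sign in the 2 lines at both doses, lower in A673 and higher in SKNMC. The difference, A673 minus SKNMC, was -0.27 at 50 nM and -0.67 at 200 nM. The difference was not tested, since a term for it would leave no residual degrees of freedom. Of the 10574 genes active in both lines, 93 had this pattern and 464 the reverse. The ERN1 level was between 0.639 and 2.10 FPKM. The A673 value at 50 nM was 0.13 with scaling to the 75th percentile, and the SKNMC values were -0.01 and -0.30 with scaling to the ribosomal protein genes, so the opposite signs at 50 nM were lost under both scalings and those at 200 nM under the latter.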

How the results depend on the processing

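Of 200 recomputed log2 fold changes of the members, 172 kept their direction and side of 1.5-fold, 16 values under 1.5-fold changed sign, 2 lost 1.5-fold (ERN1 in A673 at 200 nM and ATF6 in SKNMC at 50 nM, with the 75th percentile) and 10 gained it. All 80 values with a pseudocount of 0.1 or 0 and all 40 with a common sum were kept. The pseudocount of 0 was chosen after seeing the data. Scaling to the 75th percentile shifted the median over active genes by 0.21 and 0.30 in A673 and by 0.24 and 0.45 in SKNMC. Under it 1 member in A673 at 50 nM, 3 at 200 nM and 2 in SKNMC at 200 nM were higher at least 1.5-fold. Of all active genes, 6.17%, 14.1% and 15.2% were higher in these libraries under the same scaling. The wider list then had medians of 0.22 and 0.40 in A673 and 0.14 and 0.28 in SKNMC. With scaling to the ribosomal protein median, which moved that median by -0.19 and -0.29 in A673 and by -0.34 and -0.47 in SKNMC, they were -0.21 and -0.28 in A673 and -0.52 and -0.79 in SKNMC. With a 2-fold threshold, 2 members were lower in SKNMC at 50 nM (15.8% of active genes). The sign held under every alternative for HSP90B1 at both doses and CALR and PDIA4 at 200 nM in A673 and for HSPA5 at 50 nM in SKNMC, and changed under at least 1 scaling in the other 11 chaperone comparisons. In the fit with line as a block, added after seeing the data, the 75th percentile gave 3 higher members at 50 nM, and 3 lower and 4 higher at 200 nM, while ribosomal protein scaling gave 0 higher at either dose. Leaving out each library gave 3 to 5 lower and 0 to 1 higher members at 50 nM, and 3 to 5 lower and 1 to 3 higher at 200 nM. Over all genes tested, 4073 and 541 were lower and higher at 50 nM and 5573 and 643 at 200 nM as deposited, 2722 and 1804, and 3517 and 2479, with the 75th percentile, and 6130 and 93, and 8104 and 36, with ribosomal protein scaling.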
